A study of Mus musculus with 12 samples.

Results

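The genes described are 10 targets of the transcription factor p53: Cdkn1a, Mdm2, Ccng1, Bax, Bbc3, Trp53inp1, Phlda3, Sesn2, Gadd45a and Eda2r. They were followed through gene array profiles of mouse glioblastomas grown from GL261, a glioma cell line of C57BL/6 mice. A gene was read through a probe set to which the array annotation gives that symbol alone, or, had there been several, through the one with the highest mean over the 12 arrays. By this rule 8 of the 10 genes were measured, among 22180 genes in all, each by 1 probe set. Bax and Gadd45a were not analysed here. GL261 cells were placed in the brains of male C57BL/6 mice aged 8 weeks, and tumour tissue was taken on day 16. The 4 groups had 3 arrays each. Control was compared with the alkylating drug temozolomide (TMZ), with a PD-1 blocking antibody (Anti-PD-1), and with both (Combination). TMZ was given intraperitoneally at 30 mg/kg, and the antibody intravenously at 10 mg/kg with 2 injections per week. PD-1 is a receptor that restrains T cells. The labels state neither the days of dosing nor what Control mice received, and no genotype beyond the strain. They do not say that each array is a separate animal, so p values measure the spread between arrays, which may be technical.

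p53 is held at a low level by Mdm2, the ligase that marks it for degradation, and DNA damage lifts this brake through the kinases Atm, Atr, Chek1 and Chek2. Stabilised p53 then switches on genes that stop the cell cycle (Cdkn1a, which encodes p21, and Gadd45a), that promote cell death (Bax, Bbc3), that restrain growth signals (Sesn2, Phlda3) and that shut p53 down again (Mdm2, Ccng1). TMZ adds methyl groups to DNA, and its damage can engage this pathway. GL261 cells have been reported to carry a mutated Trp53, whereas the immune, vascular and brain cells of the host carry the gene of the strain. The tissue measured is bulk, so fewer cells of a type and less RNA per cell cannot be told apart.

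Promoter sequence of these genes was taken from RefSeq (build GRCm38.p6), where a window runs from 250 bases before to 50 bases after a transcription start. Such windows were found for 9 of the 10 genes, 12 windows in all; none was matched to Trp53inp1. p53 binds pairs of a decamer, and the p53 consensus decamer, which reads the same on both strands, was searched by its 10 letters without a mismatch. It lay in 5 of the 12 windows, 1 each of Cdkn1a, Mdm2, Ccng1, Bax and Gadd45a, against 8.36% of 32851 windows of all genes. A pair of adjacent decamers with at most 1 mismatch over 20 bases lay in 2 of the 12 windows, those of Cdkn1a and Ccng1, against 0.0883% of all windows. These pairs are shown because no other member window held such a pair, 5′ to 3′ on the strand of the gene, with the whole pair in capitals.
Cdkn1a pair, 51 bases before the upstream start, chr17:29090928-29090947, plus strand: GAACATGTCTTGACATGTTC
Ccng1 pair, 195 bases before the start, chr11:40755462-40755481, minus strand: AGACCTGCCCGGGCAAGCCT
The windows around them, and that of Mdm2, follow with every exact decamer in capitals.
Cdkn1a, upstream start, chr17:29090729-29091028, plus strand: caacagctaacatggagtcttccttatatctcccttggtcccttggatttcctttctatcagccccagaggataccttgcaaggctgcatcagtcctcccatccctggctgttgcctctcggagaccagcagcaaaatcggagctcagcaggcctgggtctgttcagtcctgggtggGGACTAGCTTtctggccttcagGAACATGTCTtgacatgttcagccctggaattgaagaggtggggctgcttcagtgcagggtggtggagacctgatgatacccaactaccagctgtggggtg
Ccng1, chr11:40755237-40755536, minus strand: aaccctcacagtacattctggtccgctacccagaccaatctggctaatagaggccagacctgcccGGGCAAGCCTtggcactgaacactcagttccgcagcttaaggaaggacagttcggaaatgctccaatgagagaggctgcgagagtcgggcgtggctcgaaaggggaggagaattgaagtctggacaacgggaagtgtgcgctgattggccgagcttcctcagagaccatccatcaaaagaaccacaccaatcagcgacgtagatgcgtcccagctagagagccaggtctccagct
Mdm2, chr10:117710709-117711008, minus strand: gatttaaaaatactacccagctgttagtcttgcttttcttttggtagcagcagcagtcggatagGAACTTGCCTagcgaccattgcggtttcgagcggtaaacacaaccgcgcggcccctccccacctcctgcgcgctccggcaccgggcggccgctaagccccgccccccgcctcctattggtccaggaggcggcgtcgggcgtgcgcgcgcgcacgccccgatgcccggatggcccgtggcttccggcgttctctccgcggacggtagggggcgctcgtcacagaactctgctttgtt
Cdkn1a has a second annotated start 2790 bases further downstream, whose window held no exact decamer. The 2 exact decamers at the upstream start are 12 bases apart, within the spacing of 0 to 13 bases taken for an element, and 0.0731% of all windows held such a spaced pair. A match describes letters only, and the window leaves out introns and distant sites, where p53 elements of several of these genes are known to lie.

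The deposited values are log2 RMA signals. RMA, the standard summary of such arrays, corrects background, brings the arrays to 1 distribution and combines the probes of a probe set, and it tends to understate fold changes. Pairwise correlations between arrays lay between 0.984 and 0.991, and array medians between 5.06 and 5.12. Control replicates 1 and 2 stood apart from the other arrays on the first principal component, at -20.1 and -26.4 against -4.10 to 13.9 for the treated arrays, and Control replicate 3 lay among these at -1.28. The main differences from Control are therefore also given without single Control arrays. Markers of neurons averaged 8.52 to 12.2 log2 and glioma and progenitor markers 5.15 (Cd44) to 8.92 (Vim); none is at 0 on this scale, and the ratio of brain to tumour in each sample is not stated.

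Cdkn1a (probe set 17335467), the cell cycle inhibitor that is the best known p53 target, read 8.04, 8.27 and 7.70 log2 in Control replicates 1, 2 and 3. It read 7.70, 7.90 and 7.72 in TMZ, 7.49, 7.67 and 7.48 in Anti-PD-1, and 7.53, 7.56 and 7.54 in Combination. TMZ overlapped Control through Control replicate 3, whereas every Anti-PD-1 and Combination array lay below every Control array. Mean levels were 8.00 ± 0.29 (SD, n = 3) in Control, 7.77 ± 0.11 in TMZ, 7.55 ± 0.10 in Anti-PD-1 and 7.54 ± 0.02 in Combination. The last 2 means do not differ beyond their spread.

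Mdm2 (probe set 17245248) varied least, over 0.16 log2 from the lowest to the highest of 12 arrays. It read 7.66, 7.62 and 7.61 in Control, 7.61, 7.58 and 7.56 in TMZ, 7.51, 7.63 and 7.60 in Anti-PD-1, and 7.50, 7.61 and 7.64 in Combination. The 3 TMZ arrays lay just below the 3 Control arrays, and the other groups overlapped them. Ccng1 (probe set 17261865), which encodes cyclin G1 and acts in the feedback between p53 and Mdm2, read 8.88, 8.87 and 8.93 in Control, 8.95, 8.77 and 9.02 in TMZ, 8.93, 9.06 and 9.04 in Anti-PD-1, and 9.01 and 8.92 in Combination replicates 1 and 2, with replicate 3 between them. Its 4 groups overlapped, with TMZ replicate 2 lowest and Anti-PD-1 replicate 2 highest.

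Sesn2 (probe set 17430861), a sestrin that restrains the growth kinase mTORC1 under stress, read 6.15, 6.34 and 6.10 in Control, 6.04, 6.05 and 5.99 in TMZ, 5.55, 6.03 and 5.84 in Anti-PD-1, and 6.04, 5.84 and 5.98 in Combination. All 9 treated arrays lay below all 3 Control arrays, and Anti-PD-1 replicate 1 was the lowest. Phlda3 (probe set 17217619), whose product competes with the kinase Akt for membrane lipids, read 7.04, 7.06 and 6.79 in Control, and its treated arrays lay between 6.75 (Anti-PD-1 replicate 1) and 6.94 (Combination replicate 2). Control replicate 3 thus lay among the treated arrays for Phlda3.

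Of the genes tied to cell death, Bbc3 (probe set 17474097), which encodes the BH3-only protein Puma, read 5.14, 4.76 and 4.81 in Control, 4.63, 4.92 and 4.55 in TMZ, 4.97, 4.57 and 4.72 in Anti-PD-1, and 4.59, 4.72 and 4.65 in Combination. Combination lay below Control and the single agents overlapped it. Trp53inp1 (probe set 17411751), a stress-induced nuclear protein that promotes cell death and autophagy, read 6.33, 6.37 and 6.56 in Control, 6.38, 6.28 and 6.26 in TMZ, 6.27, 6.14 and 6.33 in Anti-PD-1, and 6.41, 6.32 and 6.37 in Combination. Control replicate 3 was its highest array, Anti-PD-1 replicate 2 its lowest, and the groups overlapped. Eda2r (probe set 17543396), a receptor of the tumour necrosis factor family, was dim throughout, between 3.26 and 3.51, and its groups overlapped. Bbc3 and Eda2r had means under 5 log2 over the 12 arrays.

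**Figure D1:**
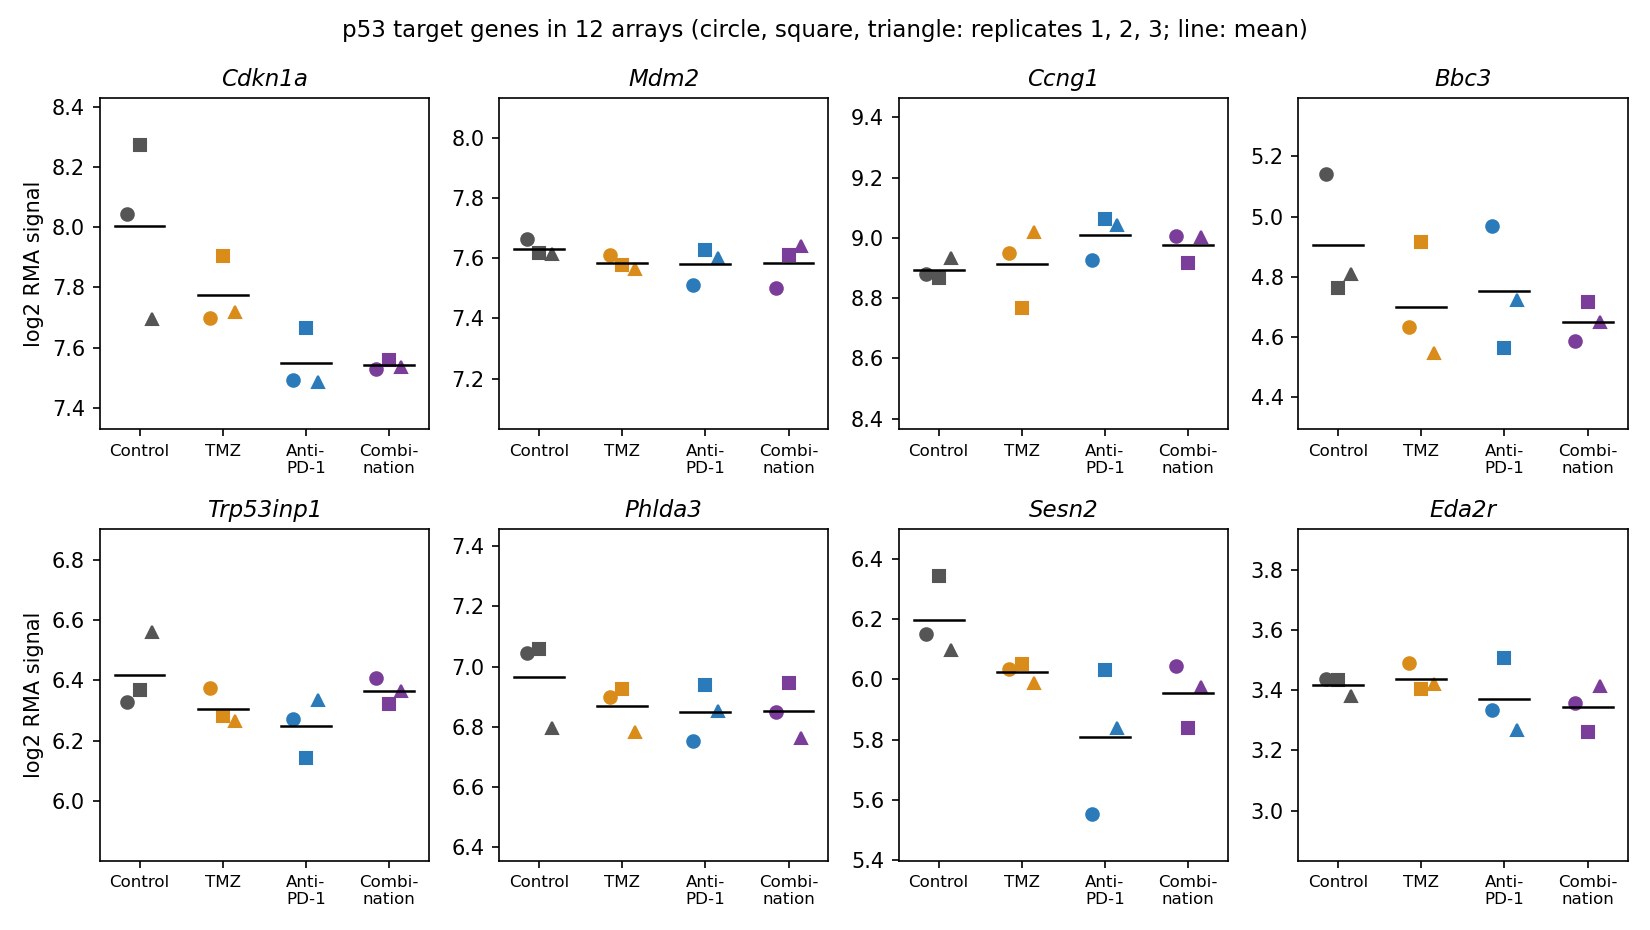
Log2 RMA signal of the 8 measured p53 targets in 12 arrays; each panel spans the same height on the log2 axis, symbols mark replicates 1 to 3 of a group and lines the group means. Cdkn1a and Sesn2 are highest in Control replicates 1 and 2, Mdm2 is nearly flat, and the groups overlap for Ccng1 and Eda2r.

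TMZ minus Control addresses the effect of the DNA-methylating agent alone, and 0 of the 8 genes were called higher or lower. Cdkn1a differed by -0.23 ± 0.12 log2 (SE; limma adjusted p = 0.505), Bbc3 by -0.21 ± 0.13 (0.591), Sesn2 by -0.17 ± 0.11 (0.601), Trp53inp1 by -0.11 ± 0.08 (0.626) and Phlda3 by -0.10 ± 0.09 (0.72). Mdm2 was at -0.05 ± 0.06, Ccng1 at 0.02 ± 0.07 and Eda2r at 0.02 ± 0.07. The feedback genes Mdm2 and Ccng1 thus lay within 0.05 log2 of Control, closer than Cdkn1a. The upper ends of the 95% intervals (limma, not adjusted for the number of genes) lay between 0.03 log2 for Cdkn1a, a signal 1.02 times that of Control, and 0.18 for Ccng1 and Eda2r, 1.13 times that of Control. The lower ends lay between -0.14 for Ccng1 (-0.13 for Eda2r) and -0.50 for Cdkn1a.

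In the fit over all genes, limma called 0 of the 8 at an adjusted p under 0.05, where 0.0992% of genes were called, and 0 of 8 had an unadjusted p under 0.05 (11.3% of genes). The median member difference was -0.10 log2 against 0.01 over all genes, with 6 of 8 means lower (47.9% of all genes). TMZ arrays lay entirely below Control for Mdm2 and Sesn2, 2 of 8 (6.81% of genes), and entirely above it for 0 of 8 (8.19%). The sign for Cdkn1a rested on Control replicates 1 and 2: the difference was -0.10 without replicate 2, -0.38 without replicate 3, and 0.08 against replicate 3 alone. Single Control arrays also moved the others. Bbc3 was at -0.09 without replicate 1, Sesn2 at -0.10 without replicate 2 and Trp53inp1 at -0.04 without replicate 3. Phlda3 was at -0.06, -0.05 and -0.18 without replicates 1, 2 and 3, and Mdm2 at -0.03 without replicate 1.

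The antibody alone was set against Control next, and Cdkn1a and Sesn2 had the lowest values relative to Control. Cdkn1a was 1.37-fold lower in mean signal (-0.46 ± 0.12 log2, interval -0.72 to -0.19), and Sesn2 1.31-fold lower (-0.39 ± 0.11, interval -0.63 to -0.15), but neither passed over all genes (limma adjusted p = 0.128 and 0.155). Trp53inp1 was at -0.17 ± 0.08 (adjusted p = 0.363), Bbc3 at -0.15 ± 0.13, Phlda3 at -0.12 ± 0.09, Mdm2 at -0.05 ± 0.06 and Eda2r at -0.05 ± 0.07. Ccng1 was the 1 member with a higher mean, by 0.12 ± 0.07 (adjusted p = 0.517).

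Limma called 0 of 8 members in this comparison (0.293% of genes), and 3 of 8, Cdkn1a, Sesn2 and Trp53inp1, had an unadjusted p under 0.05 (13.5% of genes), all lower (6.79% of genes). Groups did not overlap for 2 of 8, Cdkn1a and Sesn2, both lower (8.33% of genes), and 0 of 8 lay entirely above Control (10.3%). The median member difference was -0.14 against 0.01 over all genes, with 7 of 8 means lower (47.6% of genes). Of all genes, 381 passed with a variance trend in limma and 686 without Control replicate 3, against 65 in the main fit. Cdkn1a was among them in both settings (limma adjusted p = 0.0365 and 0.0075), at -0.61 without Control replicate 3. Its difference was -0.15 against Control replicate 3 alone and -0.27 with the neuron marker score as a covariate (limma adjusted p = 0.835). Neuron scores were higher in every Anti-PD-1 array (0.033 to 0.047) than in every Control array (-0.067 to 0.028). The covariate fit therefore cannot separate neuron content from group in this comparison. Sesn2 stayed between -0.44 and -0.32 without single Control arrays. It was at -0.29 against Control replicate 3 alone and -0.26 without Anti-PD-1 replicate 1. With the neuron covariate Sesn2 was at -0.37 (limma adjusted p = 0.746). Bbc3 was at -0.03 without Control replicate 1, Trp53inp1 at -0.10 without replicate 3, and Phlda3 at -0.08, -0.07 and -0.20 without replicates 1, 2 and 3.

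Combination was compared with Control, and Cdkn1a again had the largest member difference, 1.38-fold lower in mean signal (-0.46 ± 0.12 log2, interval -0.73 to -0.20, limma adjusted p = 0.195). This comparison shares its Control arrays with the previous ones. Bbc3 was at -0.25 ± 0.13 (adjusted p = 0.481), Sesn2 at -0.24 ± 0.11 (0.426) and Phlda3 at -0.11 ± 0.09. Eda2r, Trp53inp1 and Mdm2 were at -0.07, -0.05 and -0.05, and Ccng1 was at 0.08 ± 0.07. Limma called 0 of 8 members (0% of genes, which is 0 of 22180), and 2 of 8, Cdkn1a and Sesn2, had an unadjusted p under 0.05 (11.6% of genes), both lower (6.18%). Combination lay below Control without overlap for Cdkn1a, Bbc3 and Sesn2, 3 of 8 (7.82% of genes), and above it for 0 of 8 (8.98%). The median member difference was -0.09 against 0.00 over all genes, with 7 of 8 means lower (49.8%). Without Control replicate 3, 282 genes and Cdkn1a among them passed (-0.62, adjusted p = 0.0143); against Control replicate 3 alone the Cdkn1a difference was -0.16. Bbc3 was at -0.14 without Control replicate 1, and Trp53inp1 at -0.10 without replicate 1 and 0.02 without replicate 3. Phlda3 was at -0.07 without replicate 1 or 2 and -0.20 without replicate 3. Sesn2 was at -0.27, -0.17 and -0.29 without Control replicates 1, 2 and 3, and at -0.14 against Control replicate 3 alone. With the neuron covariate Cdkn1a was at -0.38 and Sesn2 at -0.24 (limma adjusted p = 0.36 and 0.598).

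**Figure D2:**
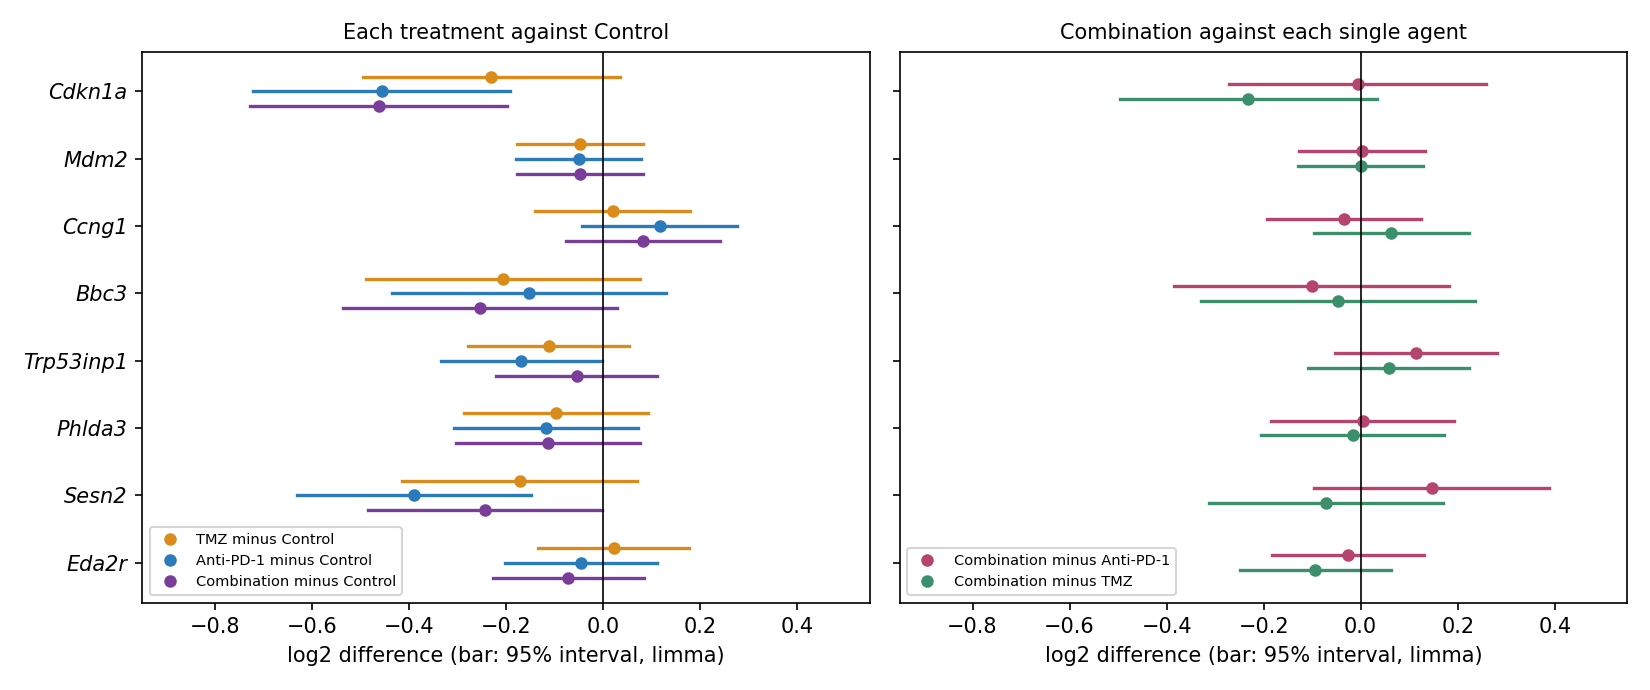
Log2 difference of each of the 8 genes with its 95% interval from limma, for each treatment minus Control (left) and for Combination minus each single agent (right). Intervals for TMZ minus Control end at or below 0.18 log2 on the upper side. Intervals lie below 0 for Cdkn1a, Sesn2 and Trp53inp1 in Anti-PD-1 and for Cdkn1a and Sesn2 in Combination.

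Combination was compared with Anti-PD-1 to ask what TMZ added in the presence of the antibody, and Cdkn1a differed by -0.01 ± 0.12 log2 (interval -0.27 to 0.26). Sesn2 was at 0.15 ± 0.11 (interval -0.10 to 0.39) and Trp53inp1 at 0.11 ± 0.08 (interval -0.05 to 0.28), the 2 largest positive member differences. Bbc3 was at -0.10 ± 0.13, Ccng1 at -0.03 ± 0.07 and Eda2r at -0.03 ± 0.07, with Mdm2 and Phlda3 both at 0.00. Limma called 0 of 8 (0% of genes), 0 of 8 had an unadjusted p under 0.05 (4.91% of genes), and the groups overlapped for all 8 (5.67% of genes were entirely lower and 4.87% entirely higher). Upper interval ends ran from 0.13 (Ccng1, Eda2r and Mdm2) to 0.39 (Sesn2), a signal up to 1.31 times that in Anti-PD-1.

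Combination was compared with TMZ to ask what the antibody added. Cdkn1a was lower in all 3 Combination arrays than in any TMZ array (-0.23 ± 0.12, interval -0.50 to 0.03, limma adjusted p = 0.99999), the 1 member of 8 whose groups did not overlap (4.7% of genes, lower), and 0 of 8 were entirely higher (3.81%). The others lay between -0.09 (Eda2r) and 0.06 (Ccng1). Limma called 0 of 8 (0% of genes), and 0 of 8 had an unadjusted p under 0.05 (4.19% of genes).

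Whether TMZ acted differently with and without the antibody was asked by the interaction, Combination minus Anti-PD-1 less TMZ minus Control. Its values were largest for Sesn2 (0.32 ± 0.16), Trp53inp1 (0.23 ± 0.11) and Cdkn1a (0.22 ± 0.17), with adjusted p from 0.569 to 0.733 in limma. The TMZ differences without the antibody were -0.17, -0.11 and -0.23 for these genes and those with it 0.15, 0.11 and -0.01. Limma called 0 of 8 for the interaction (0.00451% of genes), with 0 at an unadjusted p under 0.05 (8.92%). A moderated F test over the 4 groups also called 0 of 8 (0.00451% of genes), while 2 had an unadjusted p under 0.05 (10.1% of genes).

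Control replicates 1 and 2 were the 2 highest arrays for Cdkn1a, Sesn2 and Phlda3, 3 of the 8 members, as they were for 7.04% of all genes. Several other marker lists moved with them. Mitosis scores, each the average of 24 gene-centred log2 values, were 0.71 and 0.82 in these arrays, 0.23 in Control replicate 3 and between -0.31 and -0.10 in the 9 treated arrays. All 24 mitosis genes were lower in each treatment than in Control; limma called 3 after TMZ, 10 after Anti-PD-1 and 0 in Combination (0.0992%, 0.293% and 0% of all genes). At an unadjusted p under 0.05 there were 24, 23 and 23 of them (11.3%, 13.5% and 11.6% of all genes). Scores of monocyte and macrophage markers (10 of 10 measured) were 0.24 and 0.39 in Control replicates 1 and 2 and between -0.28 and 0.15 in all others. Those of glioma and progenitor markers (10 of 10) were 0.22 and 0.33 against -0.19 to 0.06, and those of microglia markers (9 of 10) 0.18 and 0.14 against -0.24 to 0.07. T cell markers (8 of 10) were at 0.14 and 0.20 against -0.17 to 0.10 in the others. Several of these lists were dim. Median gene means over the 12 arrays were 4.65 log2 for T cell, 4.88 for mitosis and 5.18 for monocyte and macrophage markers. Hmmr, a mitosis gene called after TMZ and Anti-PD-1, averaged 3.35. Neuron scores (10 of 12) were -0.07 in Control replicates 1 and 2 and between -0.04 and 0.05 elsewhere. Endothelial markers (10 of 10) ran the other way and separated Control from the treated arrays: their scores were -0.19, -0.11 and -0.18 in Control and between -0.07 and 0.43 (TMZ replicate 2) in the 9 treated arrays. All 10 were higher than Control in TMZ and in Combination and 9 of 10 in Anti-PD-1. Limma called 0 in each. In TMZ, Anti-PD-1 and Combination 4, 3 and 2 had an unadjusted p under 0.05 (11.3%, 13.5% and 11.6% of all genes). Beyond mitosis, limma called 2 genes of these lists, both lower in Anti-PD-1 (0.293% of all genes). They were the monocyte marker Plac8 (adjusted p = 0.0326) and the glioma and progenitor marker Myc (0.0432). Oligodendrocyte scores (9 of 10) lay between -0.05 and 0.15 in Control and between -0.13 and 0.08 in the treated arrays. Astrocyte scores (10 of 10) were 0.083, 0.001 and -0.008 in Control and between -0.089 and 0.064 in the treated arrays. The part of cell composition in the Cdkn1a and Sesn2 differences was not tested. In Anti-PD-1 minus Control the neuron covariate cannot separate neuron content from group.

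**Figure D3:**
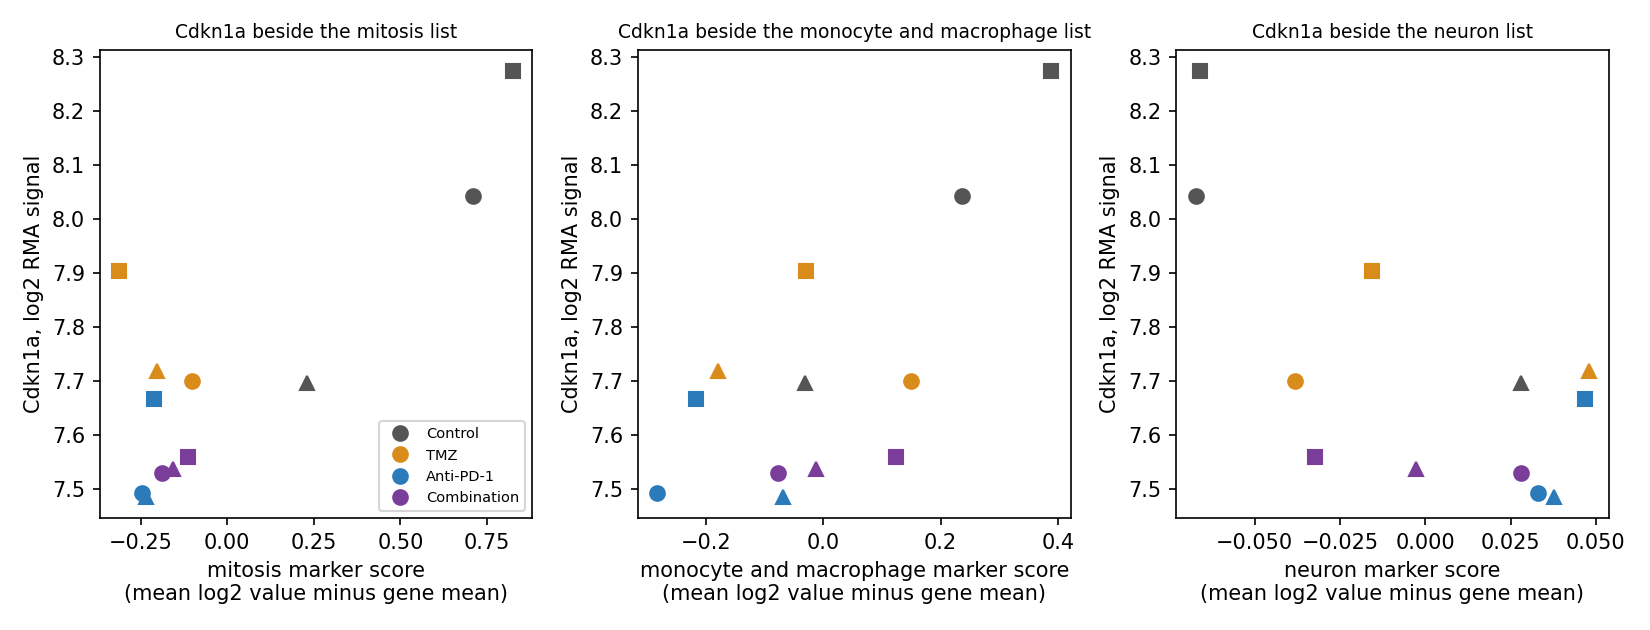
Log2 RMA signal of Cdkn1a against the score of the mitosis, the monocyte and macrophage, and the neuron marker lists, 1 point per array, coloured by group with symbols for replicates 1 to 3 (circle, square, triangle). Control replicates 1 and 2 lie at the upper end for Cdkn1a and mitosis, and Control replicate 3 has a Cdkn1a signal of 7.70 and a mitosis score of 0.23.

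The 5 genes whose pattern over the 12 arrays was most like that of Cdkn1a, by Pearson r among 11089 genes at or above the median level, were Ncapd2 (0.934), Adgra3 (0.925), Cdk2ap1 (0.916), Rhoc (0.916) and Utp4 (0.914). They are the highest of a large search, and the arrays share 4 groups, so the values describe the arrays only. Spearman rho over the 12 arrays was 0.909 for Ncapd2 and 0.720 to 0.811 for the rest. Within groups, after removing each group's mean, Pearson r was 0.789 for Rhoc and 0.848 to 0.918 for the rest. The SD of Cdkn1a was 0.29 in Control and 0.02 to 0.11 in the other groups. The within-group r therefore rests mainly on the Control arrays and does not show a likeness inside every group. None of the 5 is among the p53 target lists used here. Their differences from Control ran from -0.17 to -0.34 in TMZ, -0.27 to -0.50 in Anti-PD-1 and -0.19 to -0.49 in Combination.

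Beyond the members, 31 of 34 further p53 targets were measured, and their median differences were -0.02 in TMZ, 0.03 in Anti-PD-1 and 0.02 in Combination, against 0.01, 0.01 and 0.00 over all genes. In TMZ, 15 were higher and 16 lower, and limma called 0 higher and 1 lower (0.0992% of all genes were called). At an unadjusted p under 0.05 there were 4 higher and 1 lower (11.3% of all genes). The highest difference was that of Perp, which encodes a membrane protein of desmosomes and cell death: it read 5.31, 4.99 and 5.35 in Control and 5.46, 5.72 and 5.43 in TMZ, all above Control (0.32 ± 0.12, adjusted p = 0.362), and was at 0.16 in both Anti-PD-1 and Combination. The called gene was Gtse1, which binds p53 and is expressed in the G2 and S phases. It read 5.54, 5.52 and 5.31 in Control, 4.84, 4.87 and 4.69 in TMZ, 4.95, 4.98 and 4.94 in Anti-PD-1, and 5.11, 4.68 and 4.96 in Combination, with no treated array as high as any Control array. Its difference was -0.66 ± 0.10 in TMZ (adjusted p = 0.0461), and -0.50 ± 0.10 and -0.54 ± 0.10 in Anti-PD-1 and Combination, which missed the threshold (adjusted p = 0.0636 and 0.129). In Anti-PD-1 it passed with the filter at 5 log2 (adjusted p = 0.0354) and with a variance trend (0.0376). Gtse1 averaged 5.03 log2 over all arrays, just above that filter. Its group means were 5.46 in Control and 4.80, 4.96 and 4.91 in TMZ, Anti-PD-1 and Combination. Gtse1 thus met the filter through its Control arrays, and no conclusion is drawn from the call gained under it. The TMZ call was lost without either Control replicate 1 or 2, without any single TMZ or Anti-PD-1 array, and without Combination replicate 1 or 3, with differences from -0.69 to -0.60 in those fits. It was also lost with the replicate block (adjusted p = 0.0716), with the neuron covariate (0.126), when every probe set was tested (0.121) and in a fit of Control and TMZ arrays alone (0.276). Against Control replicate 3 alone it was -0.52. Without Control replicate 3, limma called 363 genes in TMZ, 686 in Anti-PD-1 and 282 in Combination, against 22, 65 and 0 in the main fit. Gtse1 was among them in all 3 treatments, at -0.73, -0.57 and -0.61 (limma adjusted p = 0.011, 0.0219 and 0.0274).

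Limma called 0 of the 31 in Anti-PD-1 and in Combination, with 5 at an unadjusted p under 0.05 in each (1 higher, 4 lower), beside 13.5% and 11.6% of all genes. Zmat3, an RNA-binding protein, was 0.15 ± 0.07 higher in TMZ, 0.12 in Anti-PD-1 and 0.11 in Combination (limma adjusted p from 0.422 to 0.532). Every treated array lay above every Control array for Zmat3, and the share of all genes that separate so was not counted. Sesn1, the sestrin relative of Sesn2, was at 0.10, 0.08 and 0.08, and Rrm2b, the p53-induced ribonucleotide reductase subunit, at 0.09, 0.12 and 0.04. The kinase gene Plk2 was at -0.02, 0.03 and 0.03, the antiproliferative Btg2 at -0.02, -0.02 and -0.01, and the nuclease gene Aen at -0.12, -0.09 and -0.09. Of the death genes, the receptor Fas was at 0.09, 0.19 and 0.03 and Pmaip1, which encodes Noxa, at -0.05, 0.10 and 0.14, in TMZ, Anti-PD-1 and Combination. Fas was dim, with a mean of 4.84 log2 over the 12 arrays. Pmaip1 was 0.19 ± 0.08 higher in Combination than in TMZ without overlap (adjusted p = 0.99999).

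Of 18 genes for p53 and its control, 17 were measured, and limma called 0 in every comparison, with 4, 3 and 3 at an unadjusted p under 0.05 in TMZ, Anti-PD-1 and Combination against Control (11.3%, 13.5% and 11.6% of all genes). Mdm4, the partner of Mdm2 that inhibits p53, read 7.92, 7.76 and 8.05 in Control and between 8.00 and 8.24 in the treated arrays. It was 0.26 ± 0.08 higher in TMZ and in Anti-PD-1, and 0.21 higher in Combination (adjusted p = 0.284, 0.195 and 0.364). Cdkn2a, the locus of Ink4a and Arf, of which Arf inhibits Mdm2, read 5.96, 5.99 and 5.78 in Control and between 5.34 and 5.76 in the treated arrays, all below Control. Its differences were -0.38 ± 0.12, -0.44 ± 0.12 and -0.29 ± 0.12 (adjusted p = 0.264, 0.133 and 0.375). The phosphatase gene Ppm1d was at 0.03, -0.01 and -0.06, and the damage kinase genes Atm at -0.04, -0.06 and -0.07 and Chek1 at -0.03, -0.04 and -0.05. Chek1 was dim, with a mean of 4.64 log2 over the 12 arrays.

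**Figure D4:**
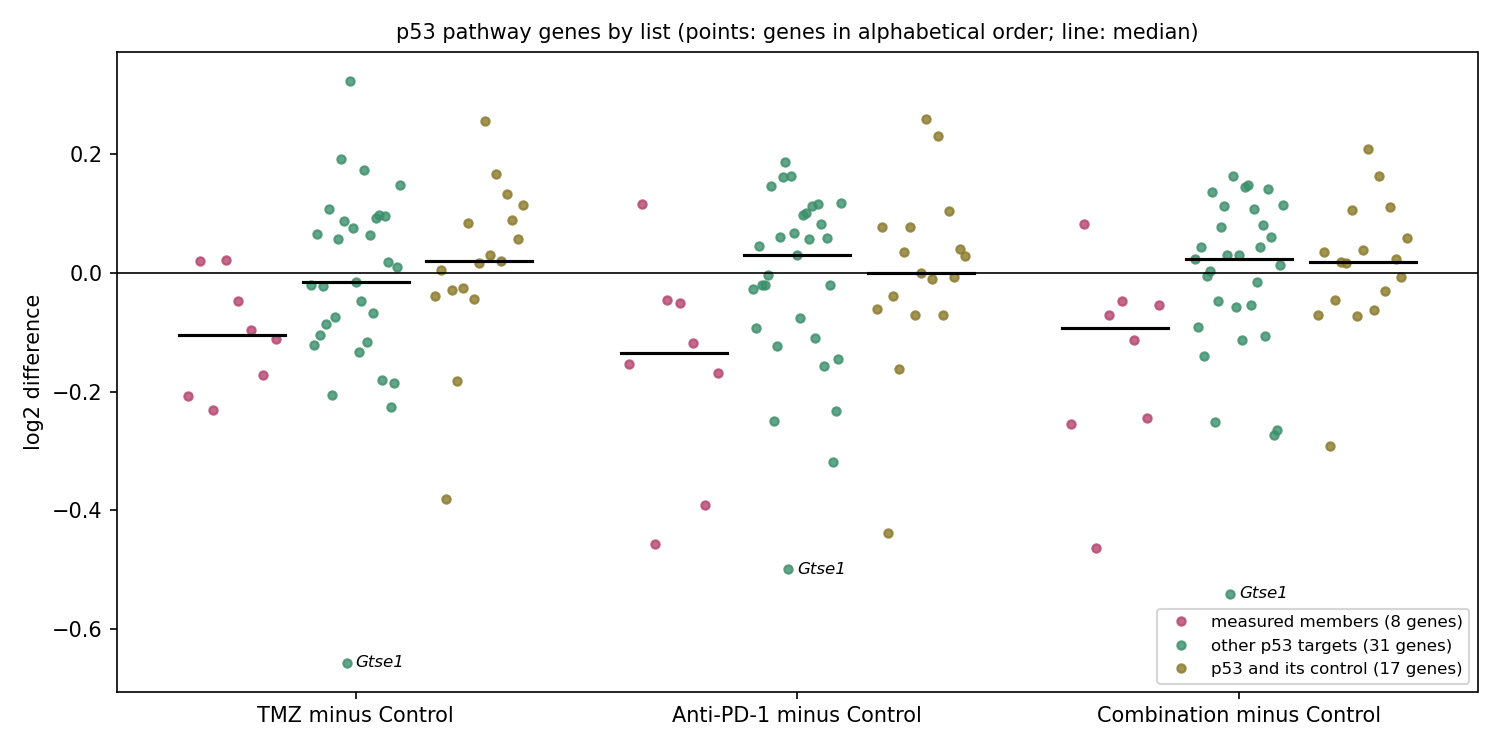
Log2 difference from Control of the 8 measured members, 31 further p53 targets and 17 genes for p53 and its control, by treatment; points are genes, lines the list medians, with Gtse1 named. Gtse1 has the lowest value in each treatment, at -0.66, -0.50 and -0.54, and the list medians lie between -0.14 and 0.03.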

How the data were processed

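Total RNA from GL261 tumour masses was measured on 12 Affymetrix whole-transcript arrays, 3 per group. The authors deposited log2 RMA signals, made with the Affymetrix Expression Console per the submitters' processing notes; version and genome build are not given in the sources used here. The table holds 41345 probe sets with 0 missing values. The annotation gives 1 symbol for 23521 probe sets, several for 1814 and lists none for 16010; 22180 genes were tested, keeping the probe set with the highest mean. All 12 arrays were fitted with limma 3.58.1 in R 4.3.3 (a mean per group, contrasts, eBayes; 8 residual degrees of freedom), and its two-sided p values were adjusted by Benjamini-Hochberg across the 22180 genes, threshold 0.05; the fit was tested on simulated data. Intervals are 95%. Arrays give no read depth; 3 per group limit the precision. Members and lists were chosen with earlier results of these data known, so no test was made of a list. All members, and Zmat3, Sesn1, Plk2, Btg2, Fas, Pmaip1, Gdf15, Ddb2, Rrm2b, Aen, Trp53, Mdm4, Ppm1d, Cdkn2a, Atm and Chek1 where measured, were named by rule, with any list gene that passed; Gdf15, Ddb2 and Trp53 were not analysed here. Levels read array by array for Zmat3, Perp, Pmaip1, Mdm4, Cdkn2a and Gtse1 were chosen after their values were seen. For Sesn2, Zmat3, Cdkn2a and Gtse1 all treated arrays lay on 1 side of Control. The share of all genes that do so was not counted, so these separations are descriptions only. Alternatives covered probe set choice, a filter at 5 log2, array centring, the variance model, the replicate block, a neuron covariate, the samples fitted and each array left out.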

Additional observations from a re-analysis of the deposited data

How the results depend on the processing

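With 3 arrays per group, small differences could be missed, and the signals of Bbc3 and Eda2r were dim. The printed intervals are not adjusted for the number of genes, so they do not mark the smallest difference that could be called. Cdkn1a in Anti-PD-1 minus Control, at -0.46, was not called (limma adjusted p = 0.128). The added settings without 2 arrays together were chosen after seeing the data. Over the members and Gtse1, 610 leave-one-out values kept direction and side of the threshold, 24 reversed, 10 lost and 4 gained a call; over the other settings 485, 22, 5 and 7 did. An array outside the groups compared cannot change a difference when left out, and several other settings change only the adjusted p. Many of the counted values could therefore not reverse. The causes of the changes were not tested.

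Members called were 0 in each comparison and setting except these. With a variance trend 1 was called in Anti-PD-1 minus Control. Without Control replicate 3 and TMZ replicate 2 together 1 was called in Anti-PD-1 minus Control, 1 in Combination minus Control and 1 over any group. Leaving out 1 array gave 0 to 1 in each of these 3, with 1 only without Control replicate 3, and in the comparisons with Control the gene was Cdkn1a.

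Calls over all genes moved more. TMZ minus Control had 22, from 0 (only the groups compared) to 113 (variance trend), and 0 to 363 leaving out 1 array. Anti-PD-1 minus Control had 65, from 0 (neuron covariate, only the groups compared) to 381, with 148 at the filter of 5 log2 and 2 with every probe set tested, and 1 to 686 leaving out 1 array. Combination minus Control had 0, with 5 at the filter and 42 with the trend, and 0 to 282 leaving out 1 array. The interaction had 1, with 12 under the trend and 0 to 198 leaving out 1 array. Each highest count came without Control replicate 3. Without it and TMZ replicate 2 the 4 counts were 112, 619, 221 and 68, and against Control replicate 3 alone all were 0.

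Replicate numbers showed no clear pairing: of 18 same-numbered pairs 1 had a correlation of deviations over 0.1, within -0.16 to 0.16. Differently numbered pairs were not compared, and a batch shared by replicate number was not tested. The replicate block gave 4, 20, 0 and 1 calls in those comparisons and 0 members, and Gtse1 in TMZ lost its call (adjusted p = 0.0716).

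The median member difference moved in Anti-PD-1 minus Control to -0.024 with the neuron covariate and -0.045 without Control replicates 1 and 2, and ranged from -0.15 to -0.057 leaving out 1 array. In TMZ minus Control it was -0.026 without Control replicates 1 and 2. In Combination minus Control it was -0.14 without Control replicate 3 and TMZ replicate 2, and -0.14 to -0.073 leaving out 1 array. For the interaction it was 0.16 at the filter of 5 log2, 0.021 with the neuron covariate, 0.18 without Control replicate 3 and TMZ replicate 2, -0.0012 without Control replicates 1 and 2, and 0.048 to 0.17 leaving out 1 array. Leaving out 1 array gave -0.033 to 0.046 in Combination minus Anti-PD-1 and -0.075 to -0.0062 in Combination minus TMZ.

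Centring arrays reversed Cdkn1a in Combination minus Anti-PD-1 (0.016) and Mdm2 (0.019) and Phlda3 (0.0023) in Combination minus TMZ. The neuron covariate reversed Ccng1 in TMZ minus Control (-0.018), Phlda3 in Anti-PD-1 minus Control (0.032), Mdm2 (-0.018), Ccng1 (0.012) and Phlda3 (-0.080) in Combination minus Anti-PD-1, and the interaction of Ccng1 (0.030), Bbc3 (-0.046) and Phlda3 (-0.050). Without Control replicate 3 and TMZ replicate 2, Trp53inp1 reversed in Combination minus Control (0.016), and Ccng1 (-0.0093), Bbc3 (0.062) and Phlda3 (0.012) in Combination minus TMZ. Against Control replicate 3 alone, TMZ minus Control reversed for Cdkn1a (0.077), Ccng1 (-0.021) and Phlda3 (0.074), Phlda3 also in Anti-PD-1 (0.054) and Combination (0.058) minus Control, and the interaction of Cdkn1a (-0.083) and Phlda3 (-0.071).

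Leaving out 1 array reversed values near 0. In TMZ minus Control the ranges were -0.034 to 0.092 (Ccng1) and -0.0039 to 0.038 (Eda2r), in Anti-PD-1 minus Control -0.11 to 0.0048 (Eda2r), and in Combination minus Control -0.10 to 0.016 (Trp53inp1). In Combination minus Anti-PD-1 they were -0.038 to 0.053 (Cdkn1a), -0.032 to 0.044 (Mdm2), -0.19 to 0.0070 (Bbc3), -0.044 to 0.049 (Phlda3), -0.077 to 0.043 (Eda2r) and -0.14 to 0.077 (Gtse1). In Combination minus TMZ they were -0.028 to 0.041 (Mdm2), -0.0093 to 0.12 (Ccng1), -0.12 to 0.062 (Bbc3) and -0.063 to 0.029 (Phlda3), and for the interaction -0.013 to 0.21 (Bbc3) and -0.098 to 0.021 (Eda2r).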
